A study of Mus musculus with 12 samples.

Results

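The transcripts described here are 6 genes of the B cell antigen receptor and its surface partners: Ighm, Igkc, Cd79a, Cd79b, Ms4a1 and Cd22. They were taken by symbol from a table of 12339 genes counted in macrophages washed from the mouse peritoneum, and each of the 6 had a row there. All mice were injected at 8 weeks of age with AAV8PCSK9, a virus that removes the LDL receptor from hepatocytes, and 4 weeks later sterile thioglycolate was used to draw macrophages into the peritoneum for lavage. The groups were wild type (WT) on chow, WT on a high-fat diet (HFD), meKO on chow and meKO on HFD, with 3 libraries each. Time on the diet was 4 weeks in every group, and the chow groups carry the virus and the thioglycolate too. From the title of the series, meKO is read here as a myeloid knockout of Prkce, the gene of protein kinase C epsilon. The recombinase line behind meKO is not named in the labels. The labels describe 8 animals per genotype, and each library title carries a number of its own, but nothing states outright that each library is a separate animal.

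A B cell recognises antigen through a membrane immunoglobulin, whose heavy and light chains bind the antigen and whose CD79A and CD79B partners carry the signal into the cell. CD22, a sialic-acid-binding lectin of the Siglec family, sits beside the receptor and dampens that signal. The peritoneal cavity of mice holds many B cells, among them the B-1 cells that make natural IgM, so a peritoneal wash can bring their RNA into a macrophage preparation.

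On HFD all 6 transcripts were lower than on chow when the diet difference was averaged over the genotypes, by 1.32-fold (Cd22) to 1.88-fold (Ms4a1). Each passed the test, as did 15.3% of all genes in that direction. Leaving out single libraries took the count of 6 to as few as 1, and lowered the counts of other gene lists too. Within WT mice Ighm fell 1.98-fold and Cd22 1.6-fold, where 11.8% of all genes passed as lower, and the other 4 missed the threshold. Leaving out WT chow 1, WT chow 2, WT HFD 1 or WT HFD 3 took that count of 2 to 0. When transcript length and GC content were modelled, Cd22 passed in neither comparison. Within meKO mice none of the 6 passed, beside 0.105% of all genes, and none passed between genotypes on either diet, beside 0.081%. These are bulk libraries, in which fewer B cells, less RNA per B cell and a change in other cells of the lavage cannot be told apart.

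Total counts per library ran from 25844958 to 37282772, and the values below are CPM, counts scaled to library size, after TMM scaling, a correction for differences in RNA composition. The macrophage markers Adgre1 (the F4/80 antigen) and Csf1r (the receptor for macrophage colony-stimulating factor) stood at 513 to 697 CPM and at 473 to 844 CPM over the 12 libraries. Averaged over genotypes both passed as lower on HFD, which held in 10 (Adgre1) and 12 (Csf1r) of 20 alternative settings. Cd3e, a defining T cell gene, ranged from 0.359 to 1.69 CPM. Pax5 was not among the 12339 genes by symbol, so it was not analysed here. Prkce was at 2.01 to 4.44 CPM in WT libraries and at 0.95 to 1.78 CPM in meKO libraries, which do not overlap. The library meKO chow replicate 2 stood apart from the other meKO libraries in Lyz2, the lysozyme gene of macrophages, with 69.3 CPM against 16300 to 21300 CPM, so results that could rest on it are also given without it.

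The immunoglobulin chains come first. Ighm, the constant region of the mu heavy chain (Entrez gene 16019, GRCm38 chr12:113418558-113422730, minus strand, annotated as an immunoglobulin constant gene), stood at 92.1, 68.9 and 104 CPM in WT chow and at 35.6, 44.5 and 53.6 CPM in WT HFD. In meKO mice Ighm was at 103, 46.1 and 82.6 CPM on chow and at 38.8, 64.2 and 75.3 CPM on HFD. All WT HFD libraries lay below all WT chow libraries, whereas the meKO groups overlapped through chow replicate 2, which was low. The fitted log2 difference of Ighm between HFD and chow was -0.98 ± 0.29 (SE) in WT (edgeR quasi-likelihood test, adjusted p = 0.0337) and -0.38 ± 0.29 in meKO (adjusted p = 0.512).

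Igkc, the constant region of the kappa light chain (Entrez gene 16071, GRCm38 chr6:70726435-70726966, plus strand), stood at 29.0, 17.1 and 33.5 CPM in WT chow and at 8.03, 10.3 and 20.1 CPM in WT HFD. It stood at 32.6, 16.6 and 27.8 CPM in meKO chow and at 11.9, 14.3 and 25.3 CPM in meKO HFD. In both genotypes the highest HFD library overlapped the chow libraries, and these were the HFD libraries numbered 3. In meKO the only chow library exceeded was replicate 2. The log2 difference of Igkc was -1.05 ± 0.40 in WT and -0.59 ± 0.39 in meKO (adjusted p = 0.0745 and 0.462 by edgeR). Reads of immunoglobulin constant regions can be shared within the gene family, and how such reads and the strand were counted is not given in the sources used here, so the values of Ighm and Igkc are uncertain to that extent.

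The signalling partners Cd79a and Cd79b were lower in abundance. Cd79a (Entrez gene 12518, GRCm38 chr7:24897381-24902197, plus strand, protein coding) stood at 10.9, 9.83 and 11.7 CPM in WT chow and at 3.40, 6.78 and 7.28 CPM in WT HFD. In meKO mice it stood at 14.0, 6.62 and 9.09 CPM on chow and at 4.21, 4.46 and 8.54 CPM on HFD. The WT groups were separate, and in meKO 1 HFD library exceeded 1 chow library. The log2 difference of Cd79a was -0.89 ± 0.33 in WT and -0.79 ± 0.33 in meKO (adjusted p = 0.0642 and 0.284 by edgeR).

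Cd79b (Entrez gene 15985, GRCm38 chr11:106311341-106314762, minus strand, protein coding) stood at 13.6, 10.6 and 19.8 CPM in WT chow and at 6.80, 8.26 and 11.6 CPM in WT HFD. It stood at 18.4, 8.66 and 11.7 CPM in meKO chow and at 6.12, 8.20 and 11.6 CPM in meKO HFD. The HFD replicate numbered 3 lay within the chow range in both genotypes, where the only meKO chow library it exceeded was replicate 2. The log2 difference of Cd79b was -0.72 ± 0.31 in WT and -0.59 ± 0.31 in meKO (adjusted p = 0.102 and 0.36 by edgeR).

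Ms4a1 encodes CD20, a membrane protein of mature B cells that is the target of B-cell-depleting antibodies. Ms4a1 (Entrez gene 12482, GRCm38 chr19:11249675-11266241, minus strand, protein coding) stood at 15.9, 11.8 and 22.2 CPM in WT chow and at 4.11, 7.37 and 12.5 CPM in WT HFD. It stood at 17.8, 8.17 and 13.1 CPM in meKO chow and at 4.62, 6.90 and 11.6 CPM in meKO HFD. Its groups overlapped in both genotypes, again through the HFD libraries numbered 3. In meKO the overlap was with chow replicate 2 alone. The log2 difference of Ms4a1 was -1.05 ± 0.43 in WT and -0.77 ± 0.43 in meKO (adjusted p = 0.0942 and 0.384 by edgeR).

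Cd22 shared the library pattern of the other 5 in part. Cd22 (Entrez gene 12483, GRCm38 chr7:30865402-30880342, minus strand, protein coding) stood at 112, 91.5 and 87.2 CPM in WT chow and at 62.2, 68.2 and 50.8 CPM in WT HFD. It stood at 92.0, 67.3 and 120 CPM in meKO chow and at 74.7, 76.3 and 106 CPM in meKO HFD. WT HFD replicate 3, the WT HFD library highest in Igkc, Cd79a, Cd79b, Ms4a1 and Ighm, was the lowest of all 12 in Cd22. The WT groups were separate, with a log2 difference of -0.68 ± 0.20 (edgeR, adjusted p = 0.0316), and the meKO groups overlapped, with a difference of -0.12 ± 0.20 (adjusted p = 0.789). When transcript length and GC content were modelled as an offset, the WT difference of Cd22 was -0.48 and no longer passed (edgeR, adjusted p = 0.0971).

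**Figure D1:**
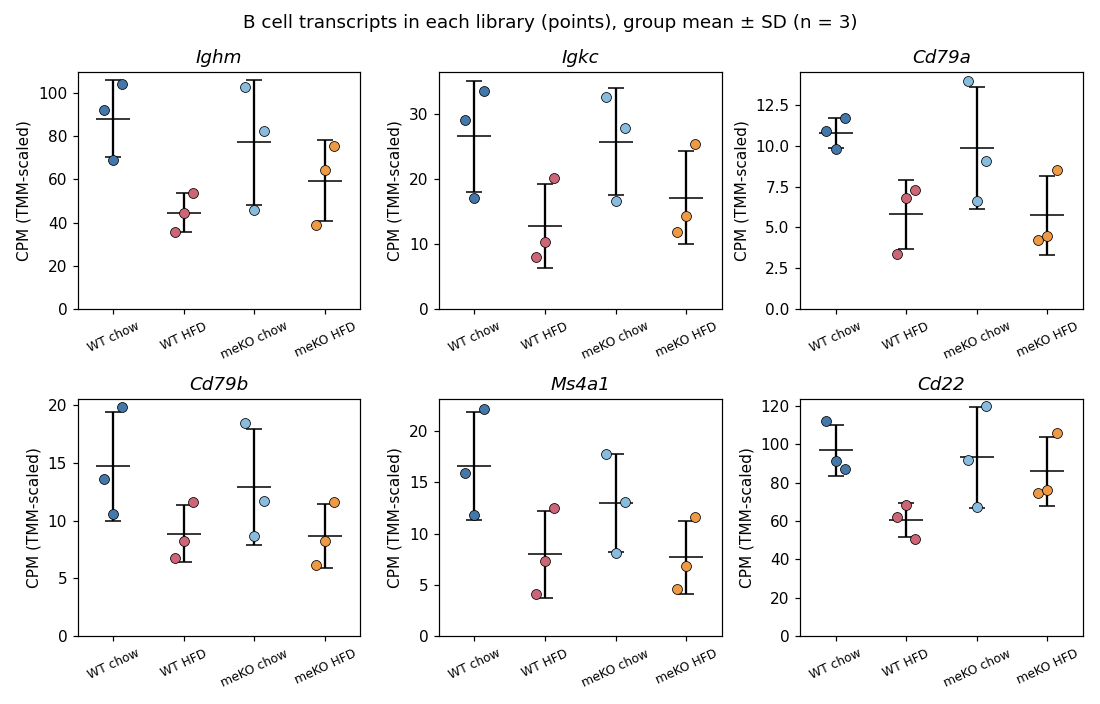
Each panel plots 1 transcript in TMM-scaled CPM on a linear axis starting at 0, with a point for each of the 12 libraries and a bar and whiskers for the group mean ± SD (n = 3), by genotype and diet. For Ighm, Cd79a and Cd22 every WT HFD point lies below every WT chow point, while the meKO points overlap for all 6 transcripts. For all but Cd22 the meKO overlap is with chow replicate 2 alone.

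Promoter sequence from RefSeq (GRCm38.p6) was at hand for 2 of the 6 genes, Cd22 and Cd79a. They are shown because the 250 bases before the start differ in exact matches to some of the motifs searched, though both hold CAGGTG. The motifs searched, on both strands, were these: CCCNNGGG, the palindrome of the B lineage factor EBF1, CAGGTG, an E-box read by E2A proteins, GGAAGT, a core of ETS factors such as PU.1 and Spi-B, and ATGCAAAT, the octamer of immunoglobulin promoters. The stretches below are printed 5′ to 3′ on the gene's strand, and capitals mark exact matches only. The Cd79a stretch also holds ctcaaggg, which differs from CCCNNGGG by 1 letter and is left unmarked. The search therefore does not show that Cd79a lacks an EBF1 site.
Cd22, chr7:30879029-30879176, minus strand: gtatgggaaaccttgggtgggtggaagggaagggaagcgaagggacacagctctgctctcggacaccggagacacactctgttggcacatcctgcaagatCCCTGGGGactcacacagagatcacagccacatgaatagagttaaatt
Cd79a, chr7:24897247-24897380, plus strand: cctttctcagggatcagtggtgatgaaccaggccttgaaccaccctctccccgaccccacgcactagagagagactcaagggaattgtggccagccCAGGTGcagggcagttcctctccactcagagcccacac
The Cd22 stretch covers the 148 bases before the RefSeq start, which lies inside the GENCODE gene given above, downstream of its outermost 5′ end, with the EBF1 palindrome beginning 48 bases before it. The Cd79a stretch runs from 250 to 117 bases before the start, with the E-box beginning 154 bases before it. Outside the printed stretches, Cd22 had an E-box 245 bases before its start and Cd79a a GGAAGT match 54 bases before its start. Neither window held the octamer. Of 32851 RefSeq promoter windows of that length, 11.817% held CCCNNGGG, 17.22% held CAGGTG, 19.741% held GGAAGT and 1.601% held ATGCAAAT, so a match in 1 promoter is a description of its letters and not of a bound factor.

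Levels of different genes were compared per kilobase of annotated exon. Averaged over the 12 libraries the order was Igkc at 38.6 CPM per kilobase, Ighm at 35.7, Cd22 at 16.7, Cd79b at 7.89, Cd79a at 5.53 and Ms4a1 at 1.83. In WT chow, Igkc (49.9 ± 16.0 CPM per kilobase, SD, n = 3) and Ighm (46.8 ± 9.38) overlapped, as did Cd79b (10.3 ± 3.28) and Cd79a (7.40 ± 0.632). In the same group Cd22 (19.2 ± 2.59) overlapped neither Ighm above it nor Cd79b below it, and Ms4a1 (2.69 ± 0.846) did not overlap Cd79a. Dividing by the longest transcript instead placed Ighm (39.7 CPM per kilobase) above Igkc (38.6) and raised Ms4a1 to 3.69, with the rest of the order as before. Per kilobase every Cd22 library stood above every Cd79b and Cd79a library of its own group.

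The question of the diet comparison is whether hypercholesterolaemic feeding changed these transcripts. With the diet difference averaged over genotypes, 6 of 6 passed as lower on HFD, where 15.3% of all 12339 genes passed as lower and 30.2% passed in either direction. The log2 differences were -0.68 ± 0.21 (SE) for Ighm, -0.82 ± 0.28 for Igkc, -0.84 ± 0.23 for Cd79a, -0.66 ± 0.22 for Cd79b, -0.91 ± 0.31 for Ms4a1 and -0.40 ± 0.14 for Cd22. The adjusted p from edgeR was 0.0185 for Cd79a, 0.0268 for Ighm and between 0.039 and 0.0458 for the other 4. The median of the 6 differences was -0.75, beside -0.03 over all genes.

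That count of 6 depended on single libraries. With each library left out in turn, the count dropped to 1 for WT chow 1, WT HFD 1, meKO chow 1, meKO chow 3 and meKO HFD 2, to 2 for WT chow 3 and meKO HFD 1, and to 3 for WT HFD 2. It stayed at 6 without meKO chow replicate 2, the library low in Lyz2, and was 1 with voom library quality weights. Other gene lists, described below, also lost calls. Without WT chow 1 the lower genes dropped from 5 to 2 for macrophages and stayed at 1 for T and NK cells. The share of all genes that passed in each such fit is not given here, so the drop is not shown to be particular to the 6. Cd79a passed in all 20 alternative settings, though with 1 library left out its adjusted p was 0.04998 (edgeR), just under the threshold. All 6 differences were below 0 in all 20. Cd22 with the offset for transcript length and GC content was at -0.26 (edgeR, adjusted p = 0.161).

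Within WT mice 2 of 6 transcripts passed, Ighm and Cd22, both lower on HFD, where 11.8% of all genes passed as lower and 21.3% in either direction. All 6 had an unadjusted p under 0.05, and the median difference was -0.94 on the log2 scale beside -0.03 over all genes. In 3 of 6 (Ighm, Cd79a and Cd22) every HFD library lay below every chow library, which was so for 19.9% of all genes. Leaving out WT chow 1, WT chow 2, WT HFD 1 or WT HFD 3 turned the count of 2 into 0, leaving out WT chow 3 or WT HFD 2 turned it into 1, and library quality weights turned it into 5. Without WT chow 1 the lower genes within WT also went from 8 to 0 for receptor signalling genes shared with myeloid cells. Macrophage genes went from 2 to 1, and T and NK cell genes stayed at 1. The share of all genes passing in these fits is not given here.

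Within meKO mice 0 of 6 passed by edgeR, where 0.105% of all genes passed in either direction and 0.0729% as lower, and 1 of the 6 (Cd79a) had an unadjusted p under 0.05. DESeq2 and both forms of limma-voom also called 0 of the 6. The differences were all below 0, with a median of -0.59 on the log2 scale beside -0.01 over all genes. No transcript had all HFD libraries below all chow libraries, which was so for 9.38% of all genes. For every transcript but Cd22, meKO chow replicate 2 was the only chow library that any HFD library exceeded. Without that library the transcripts other than Cd22 did not overlap between diets. The share of all genes of which this is true without it was not counted. With meKO chow replicate 2 left out, the meKO differences ranged from -1.03 for Cd79a and Ms4a1 to -0.31 for Cd22, with adjusted p of 0.222 to 0.411 (edgeR).

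The genotype by diet interaction tests whether the diet difference itself differed between genotypes, and 0 of 6 passed, beside 0.0162% of all genes. The interaction of Cd22 was 0.56 ± 0.28 on the log2 scale (95% interval -0.04 to 1.17, edgeR adjusted p = 0.797) and that of Ighm 0.60 ± 0.41 (interval -0.28 to 1.49, adjusted p = 0.812). That of Cd79a was 0.09 ± 0.46 (interval -0.90 to 1.08, adjusted p = 0.962). None of the 6 had an unadjusted p under 0.05. A smaller fall of Ighm or Cd22 in meKO than in WT was therefore not shown, and each of these intervals holds 0 and reaches above 1 on the log2 scale.

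Genotype was compared on each diet. On chow 0 of 6 passed, beside 0.081% of all genes, and the meKO minus WT differences ran from -0.35 (Ms4a1) to -0.05 (Igkc) on the log2 scale. On HFD 0 of 6 passed, again beside 0.081% of all genes, with differences from -0.07 (Ms4a1) to 0.51 (Cd22). Cd22 on HFD had an unadjusted p of 0.024 in edgeR and an adjusted p of 0.99, with 74.7 to 106 CPM in meKO against 50.8 to 68.2 CPM in WT, so these 3 libraries a group did not overlap. Every meKO library lay above every WT library on HFD in 1 of the 6, beside 5.45% of all genes. Averaged over diets 0 of 6 passed, beside 0.17% of all genes, and the intervals reached from -0.87 to 0.45 for Ms4a1 and from -0.08 to 0.53 for Cd22. At an unadjusted p under 0.05 the count was 0 on chow, 1 on HFD and 0 averaged over diets, and DESeq2 and limma-voom called 0 in each.

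**Figure D2:**
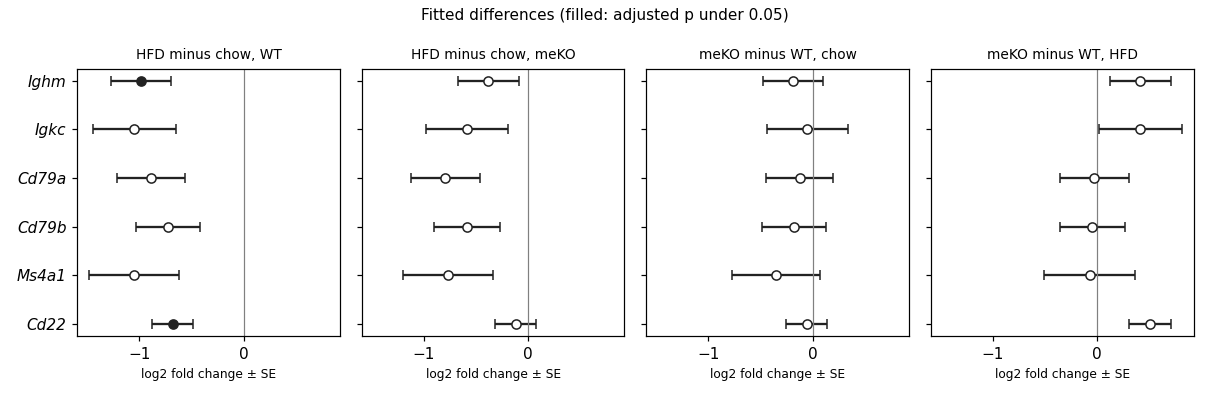
Points show the log2 difference of each of the 6 transcripts ± SE in 4 comparisons from the edgeR fit to all 12 libraries, filled where the adjusted p was under 0.05. The filled points are Ighm and Cd22 for HFD minus chow in WT, and every other point is open.

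The 5 transcripts other than Cd22 followed each other from library to library. Across the 12 libraries Pearson's r of log2 CPM between any pair of them was 0.868 to 0.968, the highest being Cd79b with Ms4a1. Cd22 gave r of 0.465 with Cd79b to 0.722 with Ighm, which exceeded its r with 81.34% and 97.63% of all genes. These are descriptions over 12 libraries that share the diet groups and their depth. WT HFD replicate 1 was among the lowest 4 libraries for 6 of 6 transcripts, and WT chow replicate 1 and meKO chow replicate 1 were among the highest 4 for 6 of 6.

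Ratios within a library take out whatever scales all B cell RNA alike. Ms4a1 to Cd79b was 0.605 to 1.16 and Cd79a to Cd79b 0.5 to 0.926 over the 12 libraries. Ighm to Igkc was 2.67 to 4.49 and overlapped between all 4 groups. Cd22 to Cd79b spread from 4.39 to 12.2, with 9.13 to 12.2 in meKO HFD, 4.99 to 10.2 in meKO chow, 4.39 to 9.15 in WT HFD and 4.40 to 8.62 in WT chow. The meKO HFD ratios of Cd22 to Cd79b overlapped those of meKO chow and, only between 9.13 and 9.15, of WT HFD. Ighm to Cd79b did not overlap between genotypes on HFD, at 6.34 to 7.83 in meKO and 4.63 to 5.38 in WT. On chow it overlapped, at 5.32 to 7.05 and 5.23 to 6.75. Igkc to Cd79b on HFD was 1.74 to 2.17 in meKO and 1.18 to 1.74 in WT. No ratio was tested, and how often ratios of other genes separate was not counted.

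**Figure D3:**
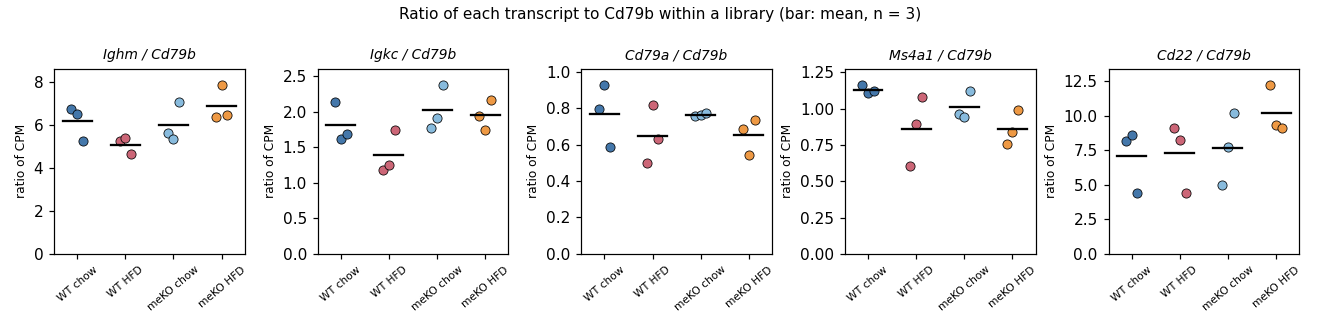
Each panel plots the ratio of the CPM of 1 transcript to that of Cd79b in the same library, on a linear axis from 0, with a point per library and a bar at the group mean (n = 3). Ms4a1 to Cd79b stays between 0.605 and 1.16, while Cd22 to Cd79b runs from 4.39 to 12.2.

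The genes most like each transcript over the 12 libraries, by Pearson's r of log2 CPM, included genes of the B cell lists for every transcript but Cd22, though for Igkc only 1 of 4. For Ighm they were Spib (r = 0.957), Ripor2, Pou2af1 and Iglc2 (0.916). For Cd79a they included Pou2af1 (0.969), Blk and Spib (0.934), and for Cd79b they were Spib (0.932), Ly6d, Igkv1-117 and Tmem135 (0.914). For Ms4a1 they were Spib (0.934), Pou2af1, Ikzf3 and Tmem135 (0.908), and for Igkc Tnfrsf13c (0.939), Snn, Ripor2 and Ikzf3 (0.898). For Cd22 they were Srbd1 (0.940), Sh2d3c, Rflnb and Arhgap25 (0.904), none of which is in the B cell lists used here.

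Other B lineage genes were read from a list of 32, of which 27 were tested. With diet averaged over genotypes 11 passed as lower and 4 as higher on HFD, beside 15.3% and 14.9% of all genes, and the median difference was -0.48 on the log2 scale beside -0.03 over all genes. Fcer2a, the low-affinity IgE receptor CD23 of mature B cells, fell by 1.92 ± 0.35 (edgeR, adjusted p = 0.00467) from 0.849 to 1.78 CPM on chow to 0.0971 to 0.877 CPM on HFD. Pou2af1, the octamer coactivator of B cells, fell by 1.35 ± 0.30 (edgeR, adjusted p = 0.00887). Bank1, a B cell scaffold of receptor signalling, fell by 0.64 ± 0.12 (edgeR, adjusted p = 0.00613). Averaged over genotypes, these 3 passed under every alternative setting in which they were tested, 20 for Pou2af1 and Bank1 and 19 for Fcer2a. Fcer2a, at 0.0971 CPM in WT HFD 1, was near the floor, and a minimum of 10 counts in every library left it out.

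The 4 B lineage genes that passed as higher on HFD were Cd72, Stap1, Cd40 and Faim, named after their values were seen, a share of the 27 near the 14.9% of all genes. Cd72, an inhibitory receptor, rose by 0.99 ± 0.25 (edgeR, adjusted p = 0.0138), and Cd40, the costimulatory receptor of antigen-presenting cells, by 0.48 ± 0.16 (adjusted p = 0.0355), which passed in 14 of 20 alternative settings. Macrophages also express Cd40, so the list is not specific to B cells throughout. Left out in turn, WT chow 1 took the count of lower genes to 7, while the count of higher genes became 1 without WT HFD 3 and 2 without WT chow 1, WT chow 2, WT HFD 1, meKO chow 3 or meKO HFD 2. Within meKO 0 of the 27 passed in either direction, beside 0.105% of all genes. Within WT 9 passed as lower and 3 as higher, where 11.8% of all genes passed as lower and 21.3% in either direction. The 9 became 1 on leaving out WT chow 1 or WT chow 2 and 0 on leaving out WT HFD 1 or WT HFD 3. The 3 became 0 on leaving out WT chow 1, WT chow 2 or any WT HFD library and 5 on leaving out meKO HFD 1.

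Of 20 immunoglobulin and plasma cell genes 12 were tested. Averaged over genotypes 3 passed as lower and 1 as higher, beside 15.3% and 14.9% of all genes. Ighd, the delta heavy chain carried by mature naive B cells, stood at 2.73 to 5.12 CPM on chow and at 0.874 to 2.58 CPM on HFD, and fell by 1.30 ± 0.23 (edgeR, adjusted p = 0.00461). Averaged over genotypes, Ighd passed under every alternative setting, and the ratio of Ighm to Ighd was 11.5 to 30.3 on chow and 26.8 to 44.4 on HFD. Prdm1, a plasma cell regulator, and Iglc3, a lambda light chain region, fell by 0.59 ± 0.19 and 0.83 ± 0.27 (adjusted p = 0.0342 and 0.035, edgeR), and passed in 12 and 11 of 20 alternative settings. The count of 3 became 1 on leaving out WT HFD 1, WT HFD 3 or meKO HFD 2, and 5 on leaving out meKO chow 2. Xbp1, which drives secretory capacity in plasma cells and in other cells, rose by 0.46 ± 0.09 (edgeR, adjusted p = 0.00725).

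**Figure D4:**
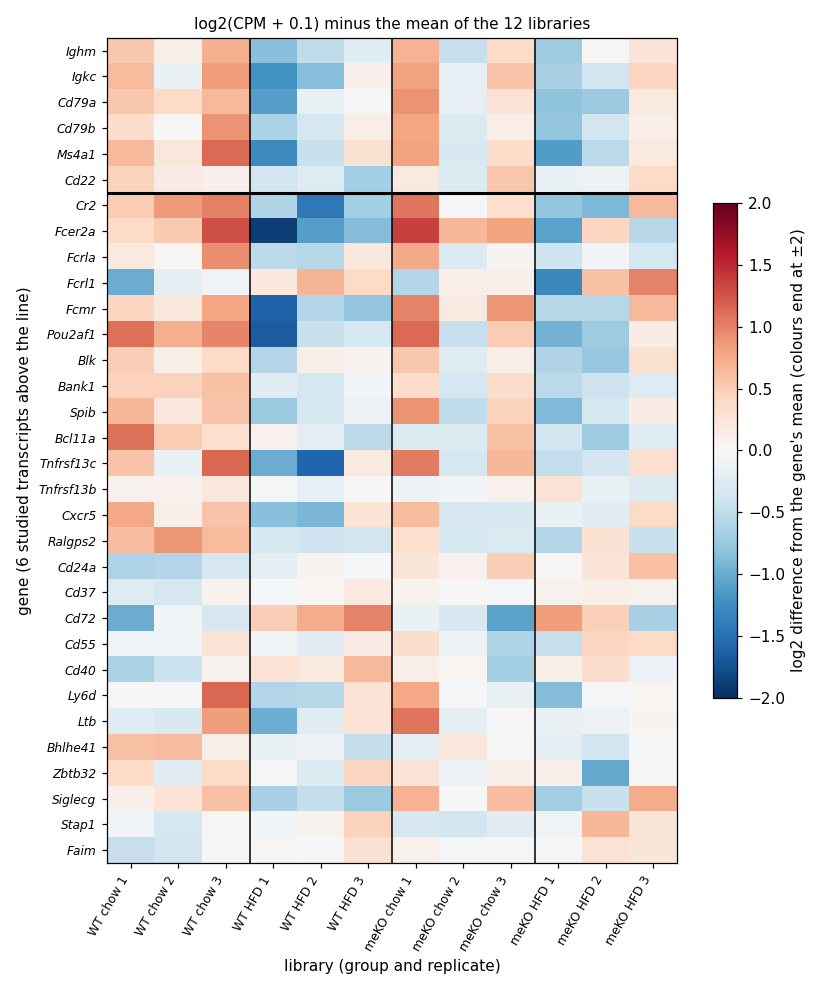
Colours show log2(CPM + 0.1) of each gene minus its mean over the 12 libraries, red above and blue below, with the 6 transcripts above the line and 26 other B lineage genes below it. WT HFD 1 is blue for all 6 transcripts and WT chow 1 and meKO chow 1 are red, while Cd72 and Cd40 are mostly red in WT HFD.

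Genes of B cell receptor signalling that myeloid cells also use were read from a list of 24, all tested. Averaged over genotypes 7 passed as lower on HFD and 2 as higher, beside 15.3% and 14.9% of all genes. The 7 became 5 without WT chow 1, WT chow 2 or WT HFD 3 and 11 without WT chow 3. The 2 became 1 without WT chow 1 or 2, WT HFD 1 or 3, meKO chow 2 or 3, or meKO HFD 2 or 3. The adaptor Grb2 fell by 0.36 ± 0.07 (edgeR, adjusted p = 0.00467), Pik3r1, a regulatory subunit of PI3-kinase, by 0.41 ± 0.10 (adjusted p = 0.0103) and the inositol phosphatase gene Inpp5d by 0.36 ± 0.09 (adjusted p = 0.0111). Inpp5d was lost with the offset for transcript length and GC content (edgeR, adjusted p = 0.0554). Rasgrp3, a Ras activator downstream of diacylglycerol, fell by 0.66 ± 0.13 with diet (edgeR, adjusted p = 0.00585) and was also lower in meKO than in WT averaged over diets, at -0.77 ± 0.13 (adjusted p = 0.028). The genotype difference of Rasgrp3 passed in 13 of 20 alternative settings and was lost on leaving out any of 7 libraries: WT chow 2, WT HFD 1, 2 or 3, meKO chow 2 or 3 and meKO HFD 3.

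Of the 7 other Siglec family genes tested beside Cd22, 4 passed as lower on HFD averaged over genotypes and 0 as higher. Of all genes 15.3% passed as lower and 14.9% as higher. Siglec1, the sialoadhesin of macrophages, fell by 0.53 ± 0.12 (edgeR, adjusted p = 0.00947), and Siglece, an inhibitory Siglec of myeloid cells, by 0.93 ± 0.25 (adjusted p = 0.0169). Cd33 fell by 0.50 ± 0.16 (edgeR, adjusted p = 0.0322), and Siglecg, the other inhibitory Siglec of B cells, by 0.74 ± 0.24 (adjusted p = 0.033). They passed in 12 and 10 of 20 alternative settings. The count of 4 became 2 on leaving out WT HFD 1, meKO chow 1, meKO chow 3, meKO HFD 1 or meKO HFD 2, and was 1 with the offset for transcript length and GC content.

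Markers of other cells were counted in the same way, beside the 15.3% of all genes that passed as lower and the 14.9% that passed as higher. Of 14 macrophage genes 5 passed as lower: Mrc1 at -0.69 ± 0.11, Mertk at -0.52 ± 0.11 (edgeR, adjusted p = 0.00415 and 0.00784), Itgam, Csf1r and Adgre1. The 3 that passed as higher were Fcgr1, Spi1 and Cd14. The summed level of the 14 genes was 38600 to 62100 CPM in WT chow and 38100 to 45500 CPM in WT HFD. In meKO it was 8050 to 29500 CPM on chow and 24100 to 26500 CPM on HFD. These sums follow Lyz2, and the other 13 genes summed to 7110 to 8310 CPM in WT and 7510 to 8490 CPM in meKO libraries. Of 20 T and NK cell genes 1 passed as lower and 2 as higher, with summed levels of 563 to 707 CPM on chow and 590 to 796 CPM on HFD. Il7r, singled out after its values were seen, made up 506 to 720 CPM of these sums, and the other 19 genes summed to 38.7 to 69.9 CPM on chow and 50.2 to 76.0 CPM on HFD. Of 12 mesothelium and fibroblast genes 5 passed as higher and 0 as lower, with sums of 53.3 to 98.2 CPM on chow and 97.6 to 146 CPM on HFD. Dcn, a matrix proteoglycan of fibroblasts, rose by 0.79 ± 0.14 (edgeR, adjusted p = 0.00434).

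The antigen presentation genes of MHC class II are shared by B cells, dendritic cells and macrophages. Of the 10 tested, 4 passed as lower averaged over genotypes and 6 within WT, beside 15.3% and 11.8% of all genes. Ciita, their master regulator, fell by 1.40 ± 0.19 averaged over genotypes (edgeR, adjusted p = 0.00134), and Cd74, the invariant chain, by 0.84 ± 0.15 (adjusted p = 0.00467). Without WT chow 1 both counts were 2, and the count within WT was also 2 without WT HFD 1 and 3 without WT HFD 3. H2-Eb1, which did not pass and was singled out after its values were seen, stood apart between libraries of 1 group, at 194, 8.88 and 11.4 CPM in WT chow, 6.58 to 6.98 CPM in WT HFD, and in meKO at 9.14, 130 and 388 CPM on chow and 125 to 281 CPM on HFD. Of 10 dendritic cell genes 3 passed as lower and 1 as higher, of 6 neutrophil genes 2 and 2, and of 10 eosinophil and mast cell genes 1 and 0. With each library left out in turn, the count of lower genes averaged over genotypes ran from 2 to 5 for macrophages, from 1 to 5 for dendritic cells and from 0 to 2 for eosinophils and mast cells, and the count of higher genes from 0 to 6 for macrophages, from 0 to 1 for dendritic cells and from 1 to 9 for T and NK cells, the 9 without WT chow 3. No tested gene of these lists was at 0 in any library. Listed genes without a row are not covered by this, as only 6 of 11 neutrophil and 10 of 12 eosinophil and mast cell genes had one. The part of these other cells in the levels of the 6 transcripts was not tested.

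**Figure D5:**
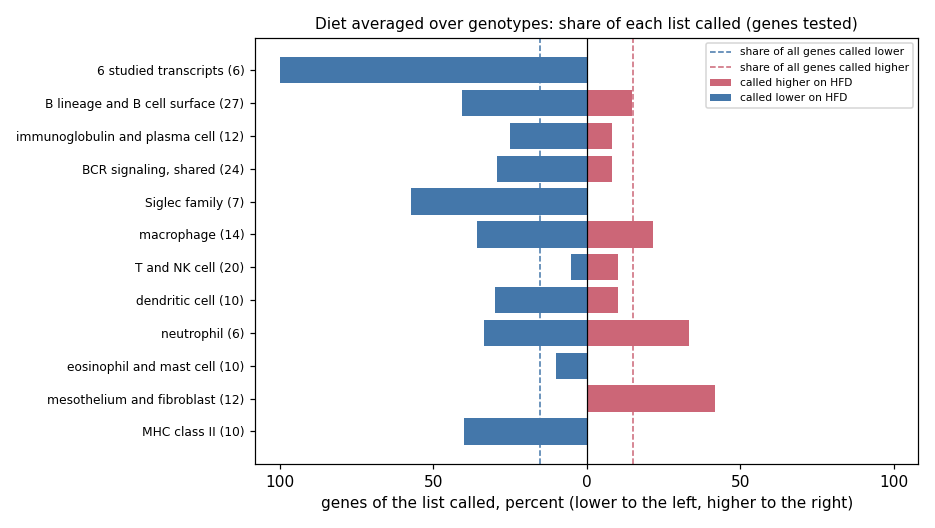
Bars give the percentage of each list's tested genes (number in brackets) that passed as lower (left, blue) or higher (right, red) on HFD averaged over genotypes, with dashed lines for the shares over all genes. All 6 studied transcripts lie on the lower side, and the 5 mesothelium and fibroblast genes that passed lie on the higher side.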

How the data were processed

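The authors deposited raw counts, whole numbers for each gene in each library, listed by Entrez identifier and symbol. Per the submitters' processing notes the build was mm10 and DESeq2 was used, while the aligner, the counting tool and the strand setting are not given in the sources used here. Per the labels, Trizol and Illumina's TruSeq kit were used. Groups came from the sample titles, and replicate numbers follow sample order and pair nothing. Replicate pairs differed by a chi-square per degree of freedom of 16.9 to 110, so none was counted as a copy. P-values measure the spread between these libraries, which may be partly technical.

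Counts were tested two-sided with edgeR 4.0.16 in R 4.3.3 (TMM, filterByExpr, which kept all 12339 genes, and the robust quasi-likelihood test on 4 group means over 12 libraries), adjusted by Benjamini-Hochberg over all genes and called under 0.05. The script was tested on simulated counts. The alternatives tried were DESeq2 1.42.0 and limma-voom (limma 3.58.1, also with library quality weights), scaling by library totals or by median-of-ratios factors, a minimum of 10 counts per library or no filter, a length and GC offset (mgcv 1.9.3, 97.65% of genes with both values), only the 6 libraries compared, and each library left out in turn. Because filterByExpr kept all genes, the fit with no filter repeats the main fit by construction, though it is counted among the alternatives. Correlations used a prior count of 0.5. Positions are from GENCODE on GRCm38 and promoters from RefSeq.

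The members and lists were chosen with earlier results of these data known. Up to 4 genes per list with the smallest p among those called were named, with Adgre1, Csf1r, Cd3e and, per member, the 4 genes of highest r. An item withheld for evaluation is not reported here.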

Additional observations from a re-analysis of the deposited data

How the results depend on the processing

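Of the 6 transcripts' differences under each alternative, none changed direction for diet averaged over genotypes (120 values, of which 46 lost the call) or for diet in WT (126 values, of which 11 lost and 9 gained it). With voom library quality weights the number of the 6 that passed was 1 averaged over genotypes and 5 in WT, and leaving out each library in turn gave 1 to 6 and 0 to 2. The cause was not tested. A group that lost a library held 2 libraries, and such fits have fewer samples by construction. No paired analysis was possible because the replicate numbers follow sample order and mark no shared animal, litter or day.

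The values that changed sign were all differences that had not passed. With library quality weights these were Cd22 for diet in meKO (0.15), Cd79a, Cd79b and Ms4a1 for genotype on HFD (0.51, 0.34 and 0.62) and averaged over diets (0.16, 0.13 and 0.17), and with the length and GC offset Cd22 for genotype on chow (0.07). Leaving out each library gave -0.31 to 0.11 for Cd22 for diet in meKO. For genotype on chow it gave -0.28 to 0.14 for Cd22, -0.45 to 0.11 for Cd79a, -0.52 to 0.10 for Cd79b, -0.45 to 0.08 for Ighm and -0.28 to 0.20 for Igkc. For genotype on HFD it gave -0.43 to 0.16 for Cd79a, -0.32 to 0.19 for Cd79b and -0.49 to 0.41 for Ms4a1. For genotype averaged over diets it gave -0.27 to 0.04 for Cd79a, -0.29 to 0.03 for Cd79b, -0.02 to 0.25 for Ighm, -0.01 to 0.43 for Igkc and -0.41 to 0.03 for Ms4a1. For the interaction it gave -0.31 to 0.42 for Cd79a, -0.16 to 0.47 for Cd79b and -0.14 to 0.75 for Ms4a1. The lowest member count in a library was 105 (Cd79a). Counting error was not compared with the spread between libraries.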
